A study of Mus musculus with 8 samples.

Results

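Glutathione S-transferases are the enzymes that join glutathione to electrophiles, and 10 of their genes were sought on the arrays: Gstm1, Gstm2, Gstm3 and Gstm5 of the mu class, Gsta2, Gsta3 and Gsta4 of the alpha class, Gstt1 (theta), Gstk1 (kappa) and Gstz1 (zeta). Each member was read from its brightest probe that the platform annotation pairs with a single gene symbol. Of the 10, 7 had such a probe, and each of these had exactly 1. The 7 were among 13840 genes with a single-symbol probe in the table. Gstm3 and Gstz1 had no single-symbol probe in the annotation used, and Gsta2 stood only on a probe that carries several symbols, so none of these 3 was analysed here. All 7 measured members passed the filter on dim probes in both tissues.

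The series set homozygous B6.CAST-17 congenic mice, which carry a CAST segment of chromosome 17 on the C57BL/6J background, against wild-type C57BL/6J mice, called B6 here. Liver and hypothalamus of male mice were profiled on chow or after 24 h with 2 diets to choose from, called 2-choice: one of carbohydrate with protein, the other of fat with protein (78% of the main macronutrient and 22% protein in each). Each array held 1 pool of RNA from 6 mice, and there was 1 array for each tissue, strain and diet: liver congenic 2-choice, liver B6 2-choice, liver congenic chow, liver B6 chow, and the same 4 for hypothalamus. Per the series text, the mice had been chosen for extreme nutrient intake in a self-selection test of 10 days and had then spent 6 weeks on chow. The time of tissue collection is recorded here for the 2-choice mice only (4 h before lights out), and no age is given. Groups follow the titles, with which the characteristics of all 8 samples agree in tissue, strain and diet. The free-text descriptions differ from the titles for 5 of the 8 samples, in tissue for 4, in strain for 2 and in diet for 2. Marker genes check the tissue alone, so every strain and diet difference below rests on the titles and characteristics. No pool was repeated, so each p-value below measures the spread between these pools only, with the matched pools of the other factor standing in for repeats. In whole tissue, fewer cells of a type and less RNA per cell cannot be told apart.

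The cytosolic transferases work as dimers and make reactive compounds more water soluble by conjugating them to the thiol of glutathione. In liver they form a main arm of phase II detoxification, after cytochrome P450 oxidation and before export of the conjugate. Several of their genes are induced through the stress-responsive factor NRF2, which binds antioxidant response elements, and through the drug receptors CAR and PXR. Mu class genes lie side by side in a cluster, so neighbouring genes can be compared as a group.

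In the RefSeq annotation of GRCm38.p6, the 3 measured mu class genes lay on chromosome 3, with Gstm5 at chr3:107895854-107898685, Gstm2 at chr3:107981702-107986420 and Gstm1 at chr3:108012250-108017973. Gsta3 lay at chr1:21240565-21265575, Gsta4 at chr9:78191966-78209349, Gstt1 at chr10:75783813-75798584 and Gstk1 at chr6:42245935-42250441. None of the 7 lay on chromosome 17, the chromosome of the congenic segment. Some of the promoters are shown, because these members carry the tissue and diet results below: 3 cluster neighbours whose tissue differences differed in sign or size, and Gsta3, which had the largest tissue difference of the 7. Each is 300 bases from RefSeq (GRCm38.p6), running from 250 bases before to 50 after an annotated start, 5′ to 3′ on the gene's own strand. Capitals mark 2 motifs that were searched on both strands and do not overlap each other here: TGACNNNGC, the core letters of an antioxidant response element, and TATAAA, the promoter element bound by the TATA-binding protein. Gstm1 has 2 windows in the table, and the one shown is the one with a match.
Gstm1 (chr3:108017769-108018068, minus strand): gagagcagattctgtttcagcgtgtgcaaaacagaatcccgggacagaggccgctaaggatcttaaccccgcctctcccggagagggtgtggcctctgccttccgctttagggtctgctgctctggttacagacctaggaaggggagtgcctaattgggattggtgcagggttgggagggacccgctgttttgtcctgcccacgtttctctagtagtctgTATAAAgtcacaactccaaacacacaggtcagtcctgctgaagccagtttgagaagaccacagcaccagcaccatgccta
Gstm2 (chr3:107986371-107986670, minus strand): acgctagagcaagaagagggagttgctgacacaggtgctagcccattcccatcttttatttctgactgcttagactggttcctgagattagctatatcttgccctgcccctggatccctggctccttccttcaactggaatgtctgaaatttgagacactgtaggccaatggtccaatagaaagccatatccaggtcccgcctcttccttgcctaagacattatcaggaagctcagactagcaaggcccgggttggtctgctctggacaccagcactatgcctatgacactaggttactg
Gstm5 (chr3:107895604-107895903, plus strand): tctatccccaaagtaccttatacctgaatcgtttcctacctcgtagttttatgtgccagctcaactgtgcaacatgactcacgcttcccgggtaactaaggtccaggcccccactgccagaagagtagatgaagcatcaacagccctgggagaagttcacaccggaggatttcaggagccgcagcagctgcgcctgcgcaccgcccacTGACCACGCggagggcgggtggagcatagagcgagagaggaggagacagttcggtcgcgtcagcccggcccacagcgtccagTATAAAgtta
Gsta3 (chr1:21240335-21240634, plus strand): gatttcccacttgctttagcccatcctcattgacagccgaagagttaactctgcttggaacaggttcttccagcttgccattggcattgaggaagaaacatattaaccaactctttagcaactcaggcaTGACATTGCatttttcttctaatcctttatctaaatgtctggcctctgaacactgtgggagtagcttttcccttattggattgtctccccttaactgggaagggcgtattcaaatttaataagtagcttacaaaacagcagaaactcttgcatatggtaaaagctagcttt

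The Gstm1 window held TATAAA 30 bases before the start, and the Gstm5 window held TGACCACGC 42 bases before the start and TATAAA 41 bases after it. The Gsta3 window held TGACATTGC 121 bases before the start, and the Gstm2 window held neither motif. Of the 6 measured members with a window, 2 had TGACNNNGC and 2 had TATAAA, while 12.4% and 13.6% of 32851 mouse windows of the same length held them. Such matches are letters in a window and were not tested as sites. Gsta4 had no window among the sequences used and was not searched.

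All values are log2 intensities of a probe after quantile normalization of each tissue's 4 arrays, and a probe was tested where its mean reached the 40th percentile of its tissue (9.04 in liver and 9.26 in hypothalamus). Brightness differs between probes, so levels are compared between arrays for 1 probe at a time. Tissue markers followed the labels: Alb, the albumin of hepatocytes, was at 20.07 to 21.40 in liver and at 8.75 to 11.42 in hypothalamus, and Hcrt, the orexin precursor, was at 8.22 to 8.89 in liver and at 14.48 to 15.98 in hypothalamus. As deposited, the arrays of both strains of a tissue and diet shared 1 distribution of intensities, but the sets differed. The median intensity was 702 on the liver 2-choice and 700 on the liver chow arrays, and it was 1338 on the hypothalamus 2-choice and 560 on the hypothalamus chow arrays. How the authors scaled arrays is not given here. In hypothalamus the diets thus differ in the intensity distribution of their arrays, and diet and that difference cannot be told apart. There the choice of scaling moves the median of all tested probes, which shifted between 2-choice and chow by 2.02 in the deposited values and 0.07 after quantile normalization within the tissue.

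**Figure D1:**
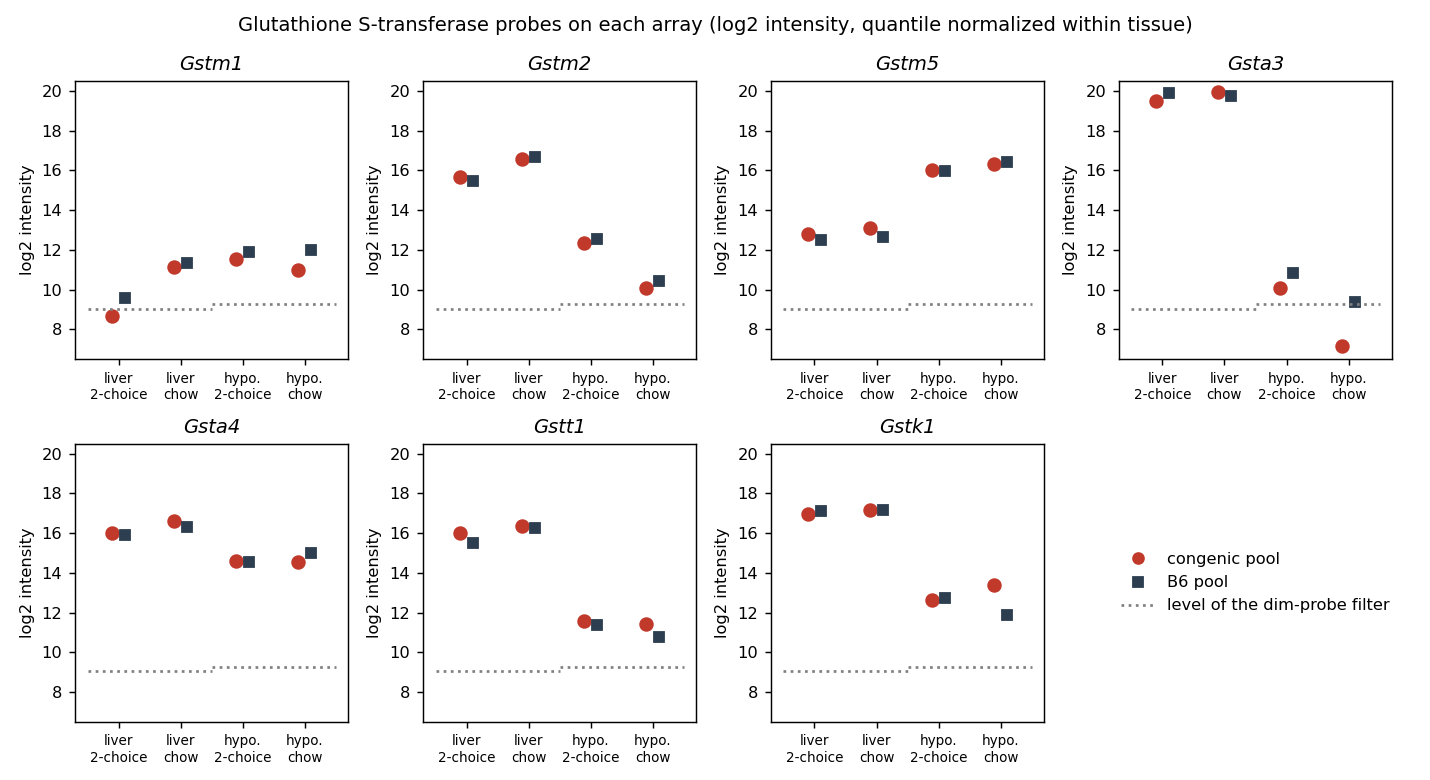
Log2 intensity of each of the 7 glutathione S-transferase probes on the 8 arrays (y axis), by tissue and diet (x axis); circles are congenic pools, squares are B6 pools, and dotted lines are the filter levels of 9.04 in liver and 9.26 in hypothalamus. Gsta3 lies at 19.48 to 19.95 in liver and at 7.17 to 10.84 in hypothalamus, and Gstm5 is the member with lower values in liver than in hypothalamus on every array.

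The contrast of the tissues was the largest one for most members. Of the 7, 5 were higher in liver, Gsta3, Gstt1, Gstm2, Gstk1 and Gsta4, Gstm5 was higher in hypothalamus, and Gstm1 did not pass. In limma, with the strain and diet pair as a block and all 8 arrays on 1 quantile scale, 6 of 7 members passed an adjusted p of 0.05, where 41.4% of 24156 probes did, 20.2% higher and 21.2% lower in liver. The median difference over the 7 members was 3.99 log2 units, against 0.05 over all probes tested. These differences are on the 8-array scale, so they need not equal the gaps between the levels given, which are scaled within a tissue.

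Gsta3, whose product in mice conjugates the epoxide of aflatoxin B1, had 19.48 and 19.92 in the congenic and B6 2-choice livers and 19.95 and 19.74 in the chow livers. In hypothalamus it had 10.10 and 10.84 in the 2-choice pools and 7.17 and 9.39 in the chow pools, again congenic before B6. Every liver array was above every hypothalamus array, by 9.76 ± 0.45 log2 units (SE, 4 pairs), or 866-fold (adjusted p = 2.01e-08). The congenic chow hypothalamus value lay under the filter level, so the size of the fold depends on values near the floor. Gstt1, the theta class enzyme that acts on small halogenated compounds, had 16.02 and 15.49 in the 2-choice livers and 16.38 and 16.25 in the chow livers. Its hypothalamus values were 11.59 and 11.38 on 2-choice and 11.44 and 10.76 on chow. The groups were far apart, at 4.54 ± 0.26, a 23.3-fold difference (adjusted p = 1.04e-07).

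Gstk1, the kappa class enzyme of mitochondria and peroxisomes, had the smallest range of the 7 in liver, with 16.95 and 17.12 in the congenic and B6 2-choice pools and 17.17 and 17.16 in the chow pools. Its hypothalamus values were 12.63 and 12.72 on 2-choice and 13.39 and 11.86 on chow. The liver difference was 3.99 ± 0.26, or 15.9-fold (adjusted p = 2.79e-07). Gsta4, which conjugates the lipid peroxidation product hydroxynonenal, was the member closest in level between tissues among those that passed. It had 16.01 and 15.92 in the 2-choice livers and 16.63 and 16.30 in the chow livers, against 14.61, 14.56, 14.53 and 15.01 in the hypothalamus pools in the same order. It was 1.88-fold higher in liver on the 8-array scale (log2 0.91 ± 0.19, adjusted p = 0.00268). On the deposited values this difference was 1.54 and no longer passed (adjusted p = 0.118).

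The mu class genes did not share a tissue pattern. Gstm2 had 15.69 and 15.45 in the congenic and B6 2-choice livers and 16.57 and 16.67 in the chow livers, against 12.33 and 12.54 in the 2-choice hypothalami and 10.08 and 10.45 in the chow hypothalami. It was higher in liver by 4.50 ± 0.54, or 22.6-fold (adjusted p = 4.51e-05), and the 2-choice pairs (3.10 and 2.66) differed from the chow pairs (6.26 and 5.98). Without the chow pairs, which were set aside after seeing the data because their hypothalamus arrays stand apart, the Gstm2 difference was 2.88 (adjusted p = 6.42e-06). Gstm5, known as the mu class gene of brain and testis, went the other way. It had 12.82 and 12.50 in the 2-choice livers and 13.10 and 12.63 in the chow livers, against 16.02 and 15.96 in the 2-choice hypothalami and 16.35 and 16.44 in the chow hypothalami. Its liver level was 14.8-fold lower (log2 -3.89 ± 0.19, adjusted p = 2.67e-08), with pairs between -4.27 and -3.65.

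Gstm1, known as a main mu class enzyme of mouse liver, differed by -1.14 ± 0.54 and did not pass (adjusted p = 0.117). Its probe was dim in liver, at 8.66 to 11.36, against a filter level of 9.04. How well this probe reports the liver transcript was not tested. The Gstm1 pairs split by diet: liver minus hypothalamus was -2.68 in the congenic and -2.02 in the B6 2-choice pools, and 0.50 and -0.38 in the chow pools. Leaving out either array of the congenic chow pair brought it past the threshold (log2 -1.69, adjusted p from 0.0285), as did leaving out both chow pairs (log2 -2.35, adjusted p = 0.00358).

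**Figure D2:**
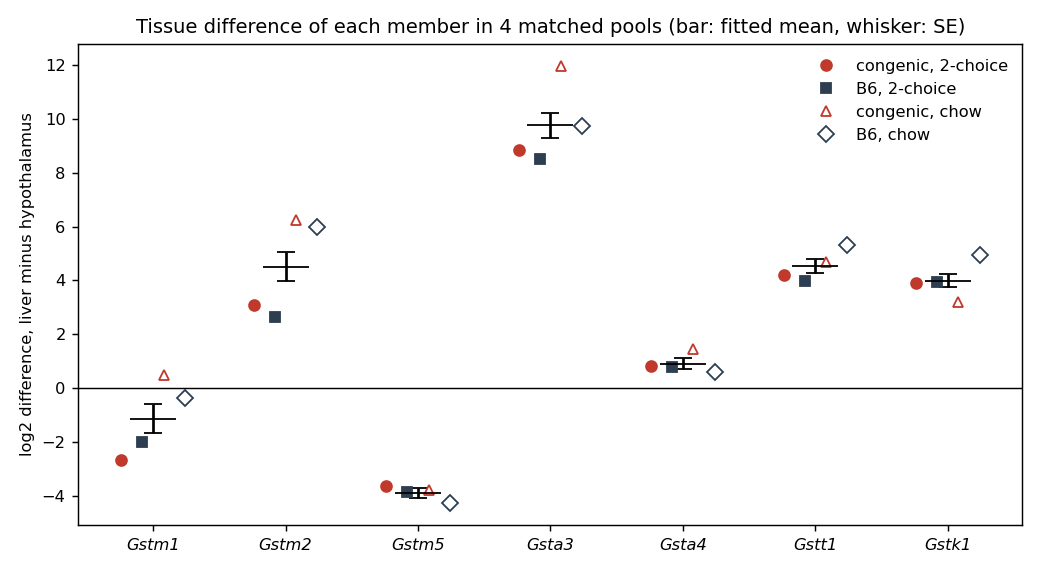
Liver minus hypothalamus difference in log2 intensity on the 8-array scale (y axis) of each member (x axis); points are the 4 matched pools by strain and diet, the bar is the fitted mean and the whisker its SE. Gsta3 stands at 9.76, Gstm5 is the member with all pairs below 0, and the Gstm1 pairs lie on both sides of 0.

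Genes around the transferases showed where the members sit in the tissue contrast. Of 11 other glutathione transferases tested, 7 were higher in liver and 1 was lower at an adjusted p of 0.05, with a median difference of 1.89. Microsomal Mgst1 was the largest of the named ones (log2 6.65 ± 0.17, adjusted p = 3.96e-10), Gstt2 differed by 4.56 ± 0.28 and Gstt3 by 3.51 ± 0.22, while Mgst3 was lower in liver (-0.76 ± 0.23, adjusted p = 0.0236). Of 15 CAR and PXR targets with a probe, 10 lay under the hypothalamus filter level and were tested through their liver level, which fixes their direction. The other 5, above the level in both tissues, were all higher in liver. Of 18 genes of glutathione synthesis, recycling and peroxidases, 9 were higher and 3 lower in liver, or 8 and 2 of the 15 above the filter level in both tissues. Gpx1, the cytosolic peroxidase, was higher by 4.34 ± 0.23, Gss, which completes glutathione synthesis, by 2.62 ± 0.24, and Gpx3, the secreted peroxidase, was lower (-4.38 ± 0.39).

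Within liver, the question was how the members responded to 24 h of diet choice. All 7 had a lower mean in the 2-choice livers, but no member passed the test. The liver diets also differed in the intensity distribution of their arrays, less than in hypothalamus, and diet and that difference cannot be told apart. In limma 0 of 19807 probes (0%) passed, the lowest adjusted p being 0.125. An unadjusted p under 0.05 was reached by 1731 probes (8.74%, or 4.11% counting only those lower in 2-choice), and by 4 of the 7 members, all lower in 2-choice. In 6 members both strains were lower on 2-choice, as 30.9% of all probes were, and in 5 both 2-choice pools lay below both chow pools, as 21.6% of all probes did. The median difference over the members was -0.50, against -0.01 over all probes tested.

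Gstm1 had the largest difference. It read 8.66 in the congenic and 9.60 in the B6 2-choice liver, against 11.14 and 11.36 in the chow livers, so the groups did not overlap, and the congenic 2-choice value lay under the filter level. The fitted difference was -2.12 ± 0.51 (SE), a 4.35-fold lower level in 2-choice livers (unadjusted p = 0.00327, limma adjusted p = 0.334), with -2.48 in the congenic and -1.76 in the B6 pools. Gstm2 had 15.69 and 15.45 in the 2-choice livers, against 16.57 and 16.67 in the chow livers. Both 2-choice pools were below both chow pools, by -1.05 ± 0.21, or 2.07-fold (limma adjusted p = 0.229). Gstm5, the third gene of the cluster on the array, differed by -0.20 ± 0.18 (adjusted p = 0.791), and its groups overlapped.

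Of the members outside the cluster, Gstt1 differed by -0.56 ± 0.23 (adjusted p = 0.55) and Gsta4 by -0.50 ± 0.19 (adjusted p = 0.495), each with both 2-choice pools below both chow pools. Gstk1 was lower in both pairs by small amounts (-0.13 ± 0.33). Gsta3 differed by -0.14 ± 0.33, with -0.47 in the congenic and 0.18 in the B6 pools. These SEs share the spread of the hypothalamus arrays. A fit of the 4 liver arrays by themselves, which leaves 1 residual degree of freedom, called 639 probes in limma, 1.51% of all probes as lower, and 2 members passed, Gstm2 (adjusted p = 0.000376) and Gstt1 (adjusted p = 0.0432), both lower in 2-choice livers. Gstm2 also passed in the 8-array fit when any 1 hypothalamus array was left out (adjusted p from 0.0143 to 0.0204), a fit whose spread comes from the liver arrays.

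**Figure D3:**
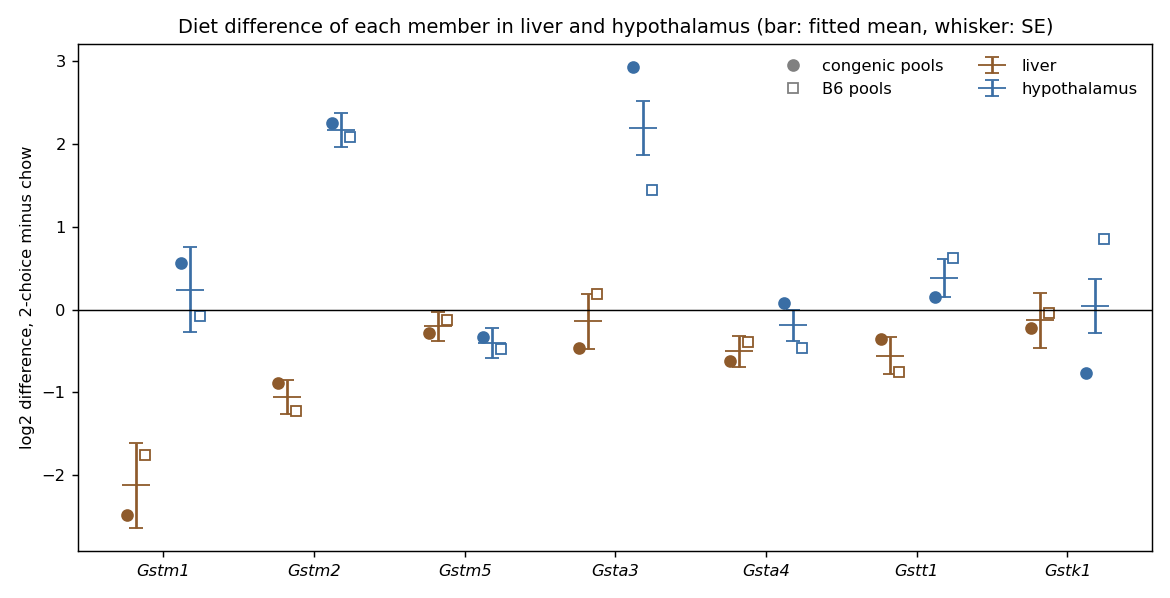
2-choice minus chow difference in log2 intensity (y axis) of each member (x axis), in liver (brown) and hypothalamus (blue); filled circles are the congenic pools, open squares the B6 pools, bars the fitted means and whiskers the SE. Gstm2 lies at -1.05 in liver and 2.17 in hypothalamus, and Gstm1 in liver has the lowest mean, -2.12.

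Markers of resident liver macrophages were lower on the same arrays. Of 11 Kupffer cell and macrophage markers 9 had a probe, 7 of the 9 were lower in the 2-choice pools of both strains, and their median difference was -1.33. Their summed level was 16.42 and 16.72 in the congenic and B6 2-choice livers, against 17.95 and 17.90 in the chow livers. The Kupffer cell lectin Clec4f was at 13.88 and 13.87 on 2-choice, against 15.36 and 15.06 on chow, Cd5l at 14.51 and 14.84, against 16.07 and 16.23, and Timd4 at 12.04 and 12.34, against 13.05 and 13.20. Marco (8.99 and 9.76, against 12.42 and 9.17) and Adgre1 (9.24 and 9.58, against 11.89 and 9.44) were lower in the congenic pair only. The hepatocyte markers, of which 6 of 8 had a probe, summed to 23.16 and 22.75 on 2-choice and to 23.32 and 22.96 on chow, and 1 of the 6 was lower in both strains. Of the 7 endothelium markers, 6 were tested and 3 of these were lower in both strains, and the 7 summed to 15.84 and 15.81 on 2-choice, against 16.13 and 16.10 on chow. The sum of the 6 measured stellate cell and fibroblast markers was 17.99 and 18.04, against 18.28 and 18.30. Of the erythroid markers 2 of 5 had a probe: Hba-a1, an alpha globin gene, was at 15.46 and 16.47 on 2-choice, against 17.13 and 17.33 on chow, and Alas2 at 15.62 and 15.78, against 15.52 and 15.43. The part of these cell types in the member differences was not tested.

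By Euclidean distance of mean-centred log2 values over the 4 liver arrays, among 9723 genes, the gene closest to Gstm1 was Vsig4, a complement receptor of Kupffer cells (distance 0.0997). Vsig4 had 10.99 and 11.89 in the 2-choice livers, against 13.57 and 13.69 in the chow livers. The next were Renbp (0.363), Ing5 (0.411), Cxcl13 (0.429) and 1700088E04Rik (0.431). Of these, Renbp, Ing5 and Cxcl13 had a 2-choice value under the filter level of 9.04, so part of their likeness lies near the floor. With only 4 arrays, likeness of this kind is a description.

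**Figure D4:**
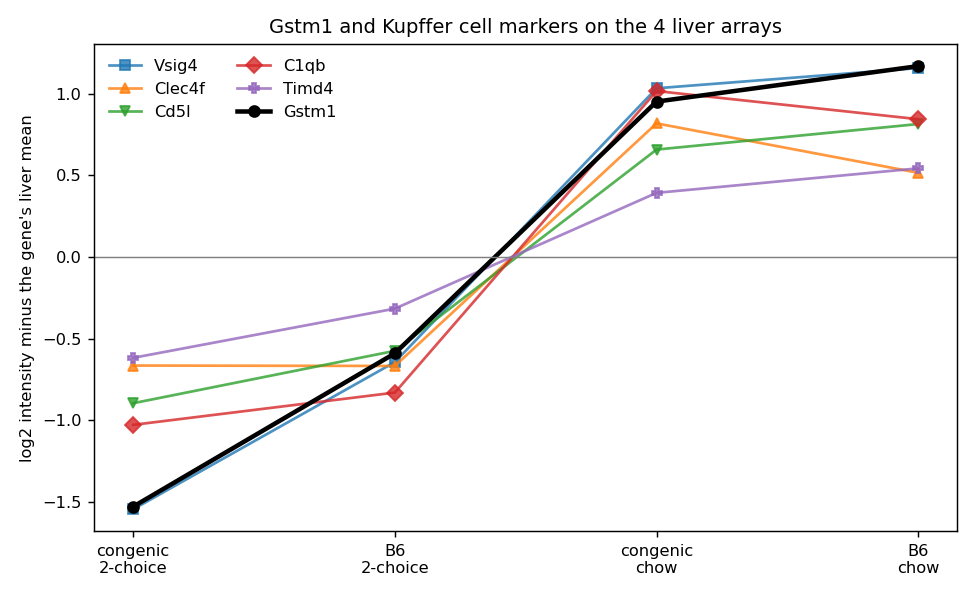
Log2 intensity minus the gene's own liver mean (y axis) on the 4 liver arrays (x axis) for Gstm1 (black) and 5 of the 9 measured macrophage markers, Vsig4, Clec4f, Cd5l, C1qb and Timd4; lines join the values of 1 gene and mark no order. All 6 genes shown lie below 0 on both 2-choice arrays and above 0 on both chow arrays. Of the measured markers not shown, Marco and Adgre1 were lower on 2-choice in the congenic pair only, and C1qa and C1qc were lower in both strains.

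In every related list but that of tyrosine breakdown, more genes were lower than higher in the 2-choice livers of both strains, and none passed the test. Of 11 other glutathione transferases tested, 7 were lower and 2 higher in both strains, where 30.9% of all probes were lower and 29.3% higher, with a list median of -0.51. The mu class genes Gstm6 (-1.26 ± 0.23, adjusted p = 0.215) and Gstm4 (-1.12 ± 0.25, adjusted p = 0.288) had differences near that of Gstm2, and Mgst3 differed by -0.87 ± 0.25. Mu class genes are close in sequence, so a probe of 1 mu class gene may bind RNA of a relative, and cross-binding was not tested. Gsto2 (0.50) and Hpgds (0.11) were higher in both strains.

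Of 13 NRF2 targets tested, 12 were lower and 0 higher in both strains, at a median of -0.25. Ephx1, the microsomal epoxide hydrolase, differed by -0.95 ± 0.18 (adjusted p = 0.221), Ugdh, which makes UDP-glucuronate, by -0.89 ± 0.24 and the haem oxygenase gene Hmox1 by -0.76 ± 0.33. Of 15 CAR and PXR targets, 9 were lower and 2 higher, at a median of -0.65. The P450 genes Cyp2c55 (-3.34 ± 0.55, adjusted p = 0.175), Cyp2b9 (-1.87 ± 0.61) and Cyp2c29 (-1.49 ± 0.25) were lowest, while Cyp2b13 (0.57) and Cyp2b10 (0.03) were higher. The group means of Cyp2b10 were nearly equal, at 12.18 on 2-choice and 12.15 on chow, and a shared cause of the list was not tested. Several genes stand on more than 1 of these lists. Of the genes named from all the lists in the liver diet contrast, Gsto2, Esd, Nat1, Abcc5 and Dpep1 had a group mean under the filter level, so their sizes rest on values near the floor.

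Of 16 genes of glutathione synthesis, recycling and peroxidases, 10 were lower and 1 higher in both strains, at a median of -0.24. Gss differed by -0.87 ± 0.28, the glutathione reductase gene Gsr by -0.44 ± 0.28 and the peroxidase gene Gpx2 by -0.40 ± 0.59, and Esd, an S-formylglutathione hydrolase, by 1.63 ± 0.67. Of 18 other phase II enzymes, 7 were lower and 4 higher (median -0.22). Besides Ephx1, the lower ones named by rule were the thiopurine methyltransferase gene Tpmt (-0.51) and the glucuronosyltransferase gene Ugt2b34 (-0.47), and the higher ones were Nat1 (0.63), Sult2a8 (0.52) and Ephx2 (0.31). Of 6 genes of conjugate export and the mercapturate route, 3 were lower and 1 higher (median -0.07), with the transporter genes Abcc5 at -1.62 and Abcc2 at -0.16, Anpep at -0.19 and Dpep1 at 0.57. Of 6 genes of tyrosine breakdown, the pathway of the unmeasured Gstz1, 0 were lower and 1, Fah, was higher (0.10).

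Of 12 regulators of transferase genes, 5 were lower and 3 higher in both strains (median -0.07). The lower ones named were the glucocorticoid receptor gene Nr3c1 (-0.68), Nr1i3, which encodes CAR (-0.63), and Maff (-0.50), and the higher ones were Cebpb (0.58), Ppara (0.53) and Arnt (0.30). No regulator passed the test.

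**Figure D5:**
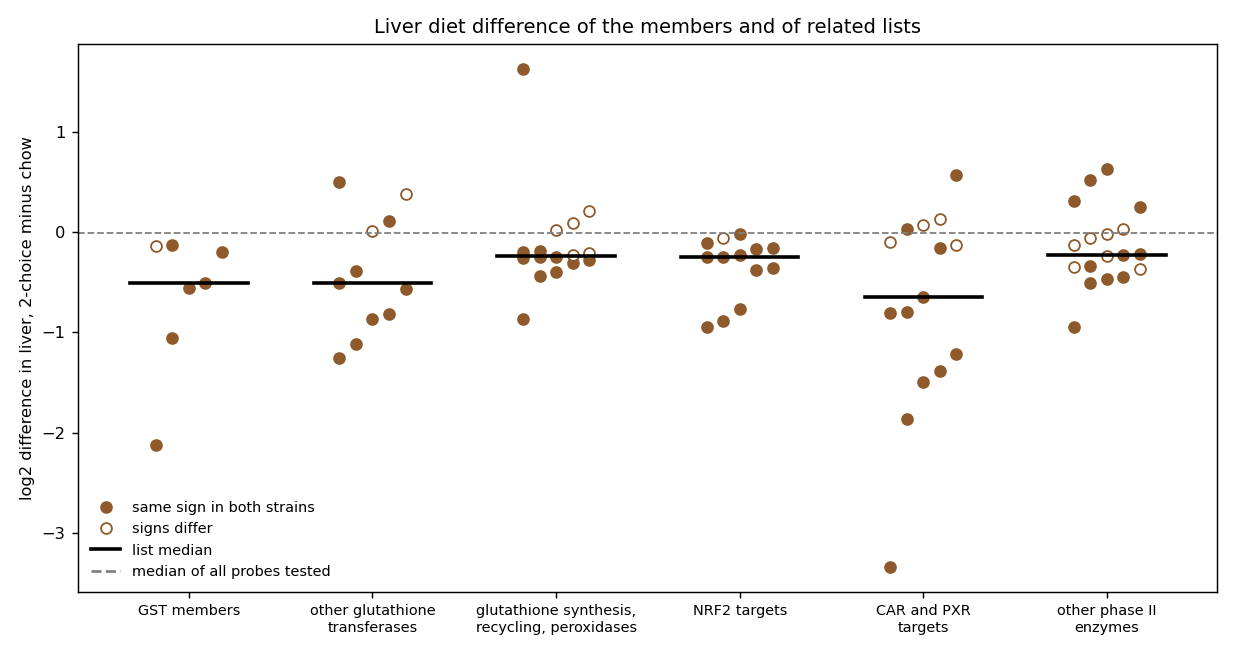
Liver 2-choice minus chow difference in log2 intensity (y axis) for the 7 members and 5 related lists (x axis); each point is a gene, filled where both strains have the same sign, the black bar is the list median and the dashed line is the median of all probes tested, -0.01. The list medians run from -0.65 for CAR and PXR targets to -0.22 for other phase II enzymes, with the members at -0.50.

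In hypothalamus, Gstm2 read higher on the 2-choice arrays, whose intensity distribution also differed from that of the chow arrays. limma called 97 of 19807 probes (0.49%), 70 higher (0.353%) and 27 lower (0.136%) in 2-choice, and 2 of the 7 members passed, both higher. Gstm2 had 12.33 and 12.54 in the congenic and B6 2-choice pools, against 10.08 and 10.45 in the chow pools, with no overlap. The difference was 2.17 ± 0.21 (SE), or 4.49-fold (adjusted p = 0.00806), with 2.25 in the congenic and 2.08 in the B6 pools. Gsta3 had 10.10 and 10.84 in the 2-choice pools, against 7.17 and 9.39 in the chow pools. Its chow mean, 8.28, lay under the filter level of 9.26, so it entered the test through its 2-choice pools, and its call (fitted difference 2.19 ± 0.33, adjusted p = 0.0352) is no measure of a rise. The congenic pair gave 2.93 and the B6 pair 1.45.

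Both calls depend on the fit. Without the trend of variance on level, limma called 0 probes, with Gstm2 at an adjusted p of 0.177 and Gsta3 at 0.193, and Gsta3 was also lost when any 1 liver array was left out (adjusted p from 0.0617 to 0.0687) or the 4 hypothalamus arrays were fitted alone (0.12). At a 60th percentile filter Gsta3 was not tested. Relative to the median of all probes tested, Gstm2 was 2.10 higher here, 2.23 on the 8-array scale and 2.11 on deposited values. Gsta3 was 2.12, 1.98 and 1.43 higher in the same order. Median-centred values give the same figures as deposited ones by construction. Taking off 1 median does not remove a difference in the shape of the distributions.

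The other 5 members did not pass. Gstm5, the bright mu class gene of this tissue, had 16.02 and 15.96 in the 2-choice pools, against 16.35 and 16.44 in the chow pools, lower in both strains without overlap (-0.40 ± 0.18, adjusted p = 0.241), as 24.8% of all probes were, while 29.2% were higher without overlap. On deposited and on median-centred values its difference had the opposite sign (1.63 and 0.37), but relative to the median of all probes it was negative on every scale (-0.39 there and -0.47 here). Gstt1 differed by 0.38 ± 0.23, Gstm1 by 0.24 ± 0.51 and Gsta4 by -0.19 ± 0.19. On deposited values all 7 members passed as higher, as 77.6% of all probes did, and on median-centred values 5 did, as 36.2% of all probes did, and the sign of Gsta4 turned (1.97 and 0.72). Relative to the median of all probes Gsta4 was at -0.26 here and at -0.05 on both of those scales, and Gstk1 at -0.02 here and 0.30 there. Gstk1 differed by 0.04 ± 0.32, and its pairs went opposite ways, at -0.76 in the congenic and 0.85 in the B6 pools. Its B6 pair passed when a congenic array was left out (adjusted p from 0.0261), which sets 1 pool against 1 with a spread from the liver arrays. The member median was 0.24, against 0.07 over all probes.

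The summed level of the 6 measured hepatocyte markers was also higher in the 2-choice hypothalamus pools, but of its genes only Alb and Ttr were higher in both strains. The sum was 13.32 and 12.79 in the congenic and B6 2-choice pools, against 11.86 and 12.05 in the chow pools. Alb was at 11.42 and 9.35, against 8.81 and 8.75, with both chow values under the filter level of 9.26. Fgb lay between 8.09 and 8.46 on all 4 arrays, under that level too. Apoa1 had 11.12 and 9.13, against 8.84 and 9.24, Tat had 8.86 and 8.98, against 8.02 and 10.51, and Ahsg had 9.47 and 9.37, against 10.81 and 8.80, so each of these was higher in 1 strain and lower in the other. Ttr, the transthyretin gene, which choroid plexus also expresses, was the 1 marker of these to pass (2.56 ± 0.26, limma adjusted p = 0.00806). It had 11.87 and 12.08, against 8.81 and 10.03, and its congenic chow value lay under the filter level. In the B6 2-choice pool the other measured hepatocyte markers lay between 8.46 and 9.37, so the sum there rested mostly on Ttr. The 5 measured choroid plexus and ependyma markers summed to 14.14 and 14.00 on 2-choice, against 14.40 and 14.81 on chow, but their genes differed. Foxj1, the brightest, was at 13.78 and 13.63, against 14.09 and 14.60, and carried most of the sum. Folr1 was higher in both strains, at 10.01 and 9.27, against 6.78 and 7.92, with both chow values under the filter level. Aqp1 was lower in both strains, and Kl and Clic6 were each higher in 1 strain and lower in the other. The 4 oligodendrocyte markers with a probe summed to 17.65 and 17.99 in the 2-choice pools, against 17.08 and 16.83 in the chow pools, each higher in both strains. The endothelium markers summed to 14.40 and 14.49 on 2-choice, against 14.04 and 14.26 on chow. The part of these marker lists in the member differences was not tested.

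Among related genes in hypothalamus, 3 passed, all higher in 2-choice: Cyp2c29 (2.32 ± 0.25, adjusted p = 0.0101), the soluble epoxide hydrolase gene Ephx2 (2.08 ± 0.21, adjusted p = 0.00806) and Txnrd1, the cytosolic thioredoxin reductase and an NRF2 target (2.44 ± 0.38, adjusted p = 0.0417). All 3 had a chow mean under the filter level of 9.26 (8.70, 8.88 and 9.25 in that order), so they too entered the test through their 2-choice pools and their sizes rest on values at the floor. They were 1 of 5 CAR and PXR targets, 1 of 8 other phase II enzymes and 1 of 12 NRF2 targets tested there. Of 11 other glutathione transferases, 0 passed, with 5 lower and 1 higher in both strains, where 29.7% of all probes were lower and 33.6% higher (list median -0.18). Quantile normalization over 8 arrays gave the same counts. On deposited and on median-centred values, where all probes shift upwards, 3 were higher and 4 lower in both strains relative to the median of all probes, and the list median lay 0.07 above that median. Mgst2 (-1.12 ± 0.69) and Gsto2 (-0.79 ± 0.64) were the lower ones named, and Gstp1, the pi class gene, differed by 0.08 ± 0.15. The 2-choice mean of Gsto2, 8.93, lay under the filter level, so its size rests on values near the floor. Of 17 genes of glutathione synthesis, recycling and peroxidases, 0 passed, with Gsr at 1.39 ± 0.28 (adjusted p = 0.0688), Esd at 1.15, Chac1 at -0.77 and Hagh at -0.58. Mgst2, Gsto2, Chac1 and Hagh lay below the median of all probes, and Gsr and Esd above it, on both quantile scales and on deposited values. Median centring gives the same distances as deposited values by construction.

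Whether the diet difference itself differed between tissues was tested by the interaction in the 8-array fit, which called 10 of 15466 probes (0.0647%), 9 of them (0.0582%) lower in liver than in hypothalamus. Gstm2 was the 1 member called: its diet difference was -1.05 in liver and 2.17 in hypothalamus, a gap of -3.22 ± 0.29 (adjusted p = 0.0259). The call was lost with quantile normalization over 8 arrays (-3.24, adjusted p = 0.0629), without the trend (adjusted p = 0.348) and when any 1 liver array was left out (adjusted p from 0.0613 to 0.104). The gaps of Gstm1 (-2.36 ± 0.74, adjusted p = 0.216), Gsta3 (-2.33 ± 0.47, adjusted p = 0.149) and Gstt1 (-0.94 ± 0.31, adjusted p = 0.234) did not pass, and those of Gsta4 (-0.32), Gstk1 (-0.17) and Gstm5 (0.20) did not pass either. Gsta3 passed when any 1 hypothalamus array was left out (adjusted p from 0.00046 to 0.0138), and Gstt1 (-1.17, adjusted p from 0.0338) and Gstk1 (-0.98, adjusted p from 0.0301) passed when a congenic hypothalamus array was. Each of these fits sets 1 hypothalamus pool against 1, with a spread from the liver arrays, and the chow mean of Gsta3 is under the filter level.

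The study's own question was the strain, and here no member passed in either tissue. In liver 0 of 19807 probes (0%) passed in limma, where the smallest adjusted p was 0.217 and 1318 probes had an unadjusted p under 0.05, and the member median was 0.07, against 0.01 over all probes. Gstm5 was the member whose congenic pools, at 12.82 and 13.10 on 2-choice and chow, both lay above the B6 pools, at 12.50 and 12.63, as 16.5% of all probes did (0.39 ± 0.18, adjusted p = 0.755). Gstm1 differed by -0.58 ± 0.51, with -0.94 on 2-choice and -0.22 on chow. Gstt1 (0.33), Gsta4 (0.21) and Gstm2 (0.07) had higher congenic means, and Gsta3 (-0.11) and Gstk1 (-0.08) lower ones. No member reached an unadjusted p of 0.05.

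Related genes in liver showed no shared strain direction, and none passed. Of 11 other glutathione transferases, 3 were higher and 2 lower in the congenic pools on both diets, where 28.1% of all probes were higher and 28.7% lower. The higher ones were Gstp1 (0.28), the microsomal Mgst3 (0.27) and Gstt2 (0.22), and the lower ones were Hpgds, the prostaglandin D synthase of the sigma class (-1.41), and Gstt3 (-0.30). Of 16 genes of glutathione synthesis, recycling and peroxidases, 4 were higher and 7 lower, with Glo1, the glyoxalase that uses glutathione, at 0.58 and Gpx3 at -0.86. Both congenic values of Gpx3, 8.97 and 8.93, lay under the filter level of 9.04, so its size rests on values near the floor. Of 13 NRF2 targets, 6 were higher and 2 lower, with the carbonyl reductase gene Cbr3 at 0.64 and Gclm, a subunit of the enzyme that begins glutathione synthesis, at -0.18. Of 15 CAR and PXR targets, 3 were higher and 7 lower, and Cyp2b9 (2.03) and Cyp2b10 (-1.25) lay at opposite ends.

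In hypothalamus 0 of 19807 probes (0%) passed in limma too, with a smallest adjusted p of 0.203 and 983 probes at an unadjusted p under 0.05. Gsta3 had the largest member difference, -1.48 ± 0.33 (unadjusted p = 0.00157, adjusted p = 0.823), at -0.74 on 2-choice and -2.22 on chow. Its congenic mean, 8.64, lay under the filter level of 9.26. It thus entered the test through its B6 pools, and its p-value is no measure of a strain difference. Gstk1 differed by 0.72 ± 0.32, at -0.09 on 2-choice and 1.53 on chow. Leaving out a 2-choice hypothalamus array sets 1 chow pool against 1, so the Gsta3 and Gstk1 differences are then those on chow. The congenic chow value of Gsta3 (7.17) is under the filter level. Gstm1 was lower in both congenic pools, 11.52 and 10.96 on 2-choice and chow, than in both B6 pools, 11.89 and 11.97 (-0.69 ± 0.51), as 11.1% of all probes were. Gstt1 was higher in both, at 11.59 and 11.44 against 11.38 and 10.76 (0.45 ± 0.23), as 11.9% were. No member passed the test of a tissue gap in the strain difference (0 of 15466 probes called, 0%, 836 at an unadjusted p under 0.05). The gap was 2.11 for Gsta3 and -1.61 for Gstk1 when a 2-choice hypothalamus array was left out, which again sets 1 chow pool against 1.

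The interplay of strain and diet within a tissue cannot be tested with 1 pool per cell, so its values are given alone. In liver the congenic diet difference minus the B6 one ran from -0.72 for Gstm1 and -0.65 for Gsta3 to 0.33 for Gstm2 and 0.40 for Gstt1. In hypothalamus it ran from -1.62 for Gstk1 to 1.48 for Gsta3, with 0.17 for Gstm2.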

How the data were processed

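Per the labels' protocols, total RNA was isolated with TRI-Reagent and columns and transcribed into digoxigenin-labelled cRNA for 1-colour chemiluminescent arrays. The authors deposited 1 linear intensity per probe and array, for 33012 probes and 8 arrays. How they corrected background and scaled arrays is not given in the sources used here. The number of arrays limits the precision. All 8 value columns were used and 0 were left out. Groups came from the sample titles, with which the characteristics match and 5 of 8 free-text descriptions do not (tissue, strain or diet).

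After log2, quantile normalization ran within each tissue (over all 8 arrays for the tissue contrast). Probes at or above the 40th percentile of mean level in the tissue (in either tissue for the tissue contrast) were tested by lmFit and trended eBayes of limma 3.58.1 (R 4.3.3), with Benjamini-Hochberg adjustment over all probes and a threshold of 0.05. Diet and strain differences came from a single 8-array model holding a tissue term plus a strain and a diet term nested in it, which leaves 2 residual degrees of freedom, made of interactions. The tissue contrast had the strain and diet pair, which the labels give, as a block (3 residual degrees of freedom). The fits were tested on simulated data.

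The platform annotation gave 1 symbol to 14411 probes, several to 247 and none to 18354. A gene was read from its brightest single-symbol probe. Every measured member was named. Per list that is no cell type list, up to 3 genes each way in liver comparisons, and up to 2 each way in hypothalamus for 2 lists, were named: those of the largest difference with the same sign in all pairs. In the tissue contrast the list genes are examples from that rule, and list genes called in hypothalamus are named beyond it, chosen after their values were seen. List genes of the liver strain contrast are examples from that rule. The 5 genes most like Gstm1 were those of the smallest distance. The members and the 19 lists were chosen with earlier results of these data known. Promoter windows are RefSeq, GRCm38.p6. Alternatives were other scalings, filters, no trend, 1 tissue alone, no block and leaving out each array; those of the interactions, apart from quantile normalization over 8 arrays, and leaving out the chow pairs were added after the data were seen. Averaging a member's probes was not run, since each had 1.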

Additional observations from a re-analysis of the deposited data

Results flagged for a closer look

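The diet difference of Gstm2, liver minus hypothalamus, was -3.22 ± 0.29 on the log2 scale (limma interaction, adjusted p = 0.0259), because the 2-choice pools were lower than the chow pools in liver in both strains and higher in hypothalamus in both strains. The call was lost with quantile normalization over 8 arrays (adjusted p = 0.0629), without the trend (adjusted p = 0.348) and without any 1 liver array (adjusted p from 0.0613 to 0.104). In both tissues, and most in hypothalamus, the diets also differ in the intensity distribution of their arrays, and the diet and that difference cannot be told apart. With 1 pool per group, no group was large enough for a search for outlying arrays.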

How the results depend on the processing

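With 1 pool per group and 2 or 3 residual degrees of freedom, and with values near the filter level for Gstm1 in liver and Gsta3 in hypothalamus, sizes are firmer for bright probes than for dim ones; the cause of each change below was not tested. Of 724 member values under alternatives, 631 kept direction and side of the threshold, 41 gained a call, 14 lost one and 38 changed sign. On deposited values the hypothalamus diet calls were 15430 (7 members, member median 2.41), the diet interaction calls 10781 (7 members), the hypothalamus strain calls 1, the tissue calls 5931 and the liver diet member median -0.57. Median centring gave 7633 (5 members, median 1.15), 3901 (5 members), 1 and -0.58 for the first 3 and the last of these. Under deposited and median-centred values Gstm5 (1.63 and 0.37) and Gsta4 (1.97 and 0.72) turned positive in the hypothalamus diet contrast, and Gstm5 (-1.85 and -0.60) turned negative in the diet interaction. Quantile normalization over 8 arrays gave 202 hypothalamus diet calls and 0 interaction calls (0 members). The 4 arrays of a tissue alone gave 639 liver diet calls (2 members), 252 liver strain calls, 753 hypothalamus diet calls (1 member) and 21 hypothalamus strain calls. A 60th percentile filter gave 43 hypothalamus diet calls (1 member) and 2 interaction calls, and no trend gave 0 of each with 0 members. Without the replicate block the tissue contrast had 10291 calls with the same 6 members counted and a median of 3.99, and it changed no member call; without the chow pairs the member median was 2.88.

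Leaving out each array in turn gave 9 to 258 liver diet calls (0 to 1 members, median -0.50 to -0.39), 10 to 78 liver strain calls (0 members, median 0.069 to 0.13), 25 to 1714 hypothalamus diet calls (1 to 3 members, median 0.15 to 0.62) and 0 to 1376 hypothalamus strain calls (0 to 2 members, median -0.38 to -0.090). It gave 8313 to 9304 tissue calls (6 to 7 members, median 3.68 to 4.02), 4 to 1292 diet interaction calls (0 to 4 members) and 3 to 810 strain interaction calls (0 to 2 members). The most hypothalamus diet calls came without the hypothalamus congenic chow array and the most hypothalamus strain calls without the congenic 2-choice array. Signs changed for Gsta3 in liver diet (-0.47 to 0.18), for Gstm2 (-0.10 to 0.24), Gsta3 (-0.44 to 0.21) and Gstk1 (-0.17 to 0.0065) in liver strain, and for Gstm1 (-0.079 to 0.56), Gsta4 (-0.46 to 0.081) and Gstk1 (-0.76 to 0.85) in hypothalamus diet. They also changed for Gstm5 (-0.094 to 0.058), Gsta4 (-0.49 to 0.054) and Gstk1 (-0.090 to 1.53) in hypothalamus strain, for Gstk1 in the diet interaction (-0.98 to 0.63) and for Gstm1 (-0.25 to 0.47), Gstt1 (-0.35 to 0.12) and Gstk1 (-1.61 to 0.0094) in the strain interaction.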
